A study of Mus musculus with 25 samples.

Results

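Telomerase and shelterin genes were described in HSLAM cells, the LSK+ CD150+ CD48- population of bone marrow that is rich in hematopoietic stem cells, with and without *Znf143*. The members were a fixed list of 10 genes, which was *Tert*, *Terc*, *Dkc1*, *Terf1*, *Terf2*, *Pot1a*, *Pot1b*, *Acd*, *Tinf2* and *Rtel1*. All 10 were found by symbol among the 23116 genes of the expression table, and all 10 passed the filter on low values. RNA was sequenced from 3 control libraries (*Znf143 f/f*) and 3 knockout libraries (*Znf143 -/-*). Control mice carried the floxed *Znf143* alleles without *Rosa26ERT2-Cre*, and knockout mice carried the same alleles with it. This Cre is expressed from a ubiquitous locus and acts only after tamoxifen, so the deletion was not limited to blood cells. Both genotypes were C57BL/6 littermates and were given tamoxifen at the middle of the tested dosages over 10 days, and bone marrow was taken from male mice of 8 to 12 weeks. The sample labels name the knockout after CTCF, whereas the study's text describes deletion of *Znf143*, and the deleted gene was therefore measured first.

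*Zfp143*, the mouse symbol of *Znf143*, was at 3.0, 4.32 and 3.57 FPKM (fragments scaled by gene length and library total) in the *Znf143 f/f* libraries. It was at 0.151, 0.290 and 0.264 FPKM in the *Znf143 -/-* libraries, with a log2 fold change of -3.49 ± 0.24 (SE, n = 3 per genotype, adjusted p = 0.000996 with limma). Libraries held from 38643255 to 57895793 fragments on genes. The FPKM of the third *Znf143 -/-* library had been divided by the total of the second, although their fragments per gene differed, and all FPKM given here were therefore put on a common scale with median-of-ratios size factors (rescaled FPKM). Of the markers of the gate, *Ly6a* rose by 1.13 and *Mecom* fell by 0.55 on the log2 scale, and the summed FPKM of the 7 gate markers was 337 to 397 in *Znf143 f/f* and 629 to 684 in *Znf143 -/-* libraries. Without *Ly6a*, which made up most of this sum, it was 104 to 116 and 92.5 to 96.9 FPKM, and 5 of the 7 gate markers had a negative log2 fold change. *Cd48*, which the gate should lack, was at 9.32 to 10.8 and 19.1 to 19.9 FPKM, respectively. The 15 markers of other cells used here summed to 427 to 510 FPKM in *Znf143 f/f* and 573 to 875 FPKM in *Znf143 -/-* libraries, of which *Pf4* made up most, and 43.0 to 46.7 and 75.0 to 86.8 FPKM without it. *Cd3e* and *Cd79a*, which define T and B cells, were under 0.1 FPKM in every library. *Cd4*, also of T cells, was at 0.025 to 0.245 FPKM in *Znf143 f/f* and at 0.224 to 0.289 FPKM in *Znf143 -/-* libraries. *Gzmb* of natural killer cells was at 0 in *Znf143 f/f* and at 0 to 0.456 FPKM in *Znf143 -/-* libraries. *Ly6g* of granulocytes was at 0 to 0.023 FPKM in *Znf143 f/f* and at 0.047 to 0.211 FPKM in *Znf143 -/-* libraries. Of these 15 markers, 12 were tested, 3 rose and 1 fell. Besides *Cd48*, *Flt3* of progenitors rose from a mean of 5.04 to 15.4 FPKM and *Elane* of the granulocyte lineage from 0.435 to 7.69 FPKM, whereas the globin gene *Hbb-bt* fell from 2.16 to 0.774 FPKM. The part of these markers in the results below was not tested. In bulk RNA, fewer cells of a type and less RNA per cell cannot be told apart.

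Telomerase extends chromosome ends by copying a short template in its own RNA. Its catalytic subunit is the reverse transcriptase TERT, its template RNA is *Terc*, and dyskerin, the product of *Dkc1*, holds the RNA in a stable particle. Shelterin is the protein complex that coats telomeres and keeps them from being read as broken DNA. TRF1 and TRF2 (*Terf1*, *Terf2*) bind the double-stranded repeats, POT1 binds the single-stranded overhang, TIN2 (*Tinf2*) links these proteins, and TPP1 (*Acd*) joins POT1 to TIN2 and recruits telomerase. Mice have a pair of POT1 proteins where humans have a single one. RTEL1 is a helicase that unwinds telomeric loops and DNA secondary structures during replication. Hematopoietic stem cells are known for telomerase activity, and inherited defects of several of these genes cause bone marrow failure in humans.

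The template of mouse telomerase lies at the start of the *Terc* RNA, and its first 60 bases are shown because this run is what TERT copies. They are at chr3:96414774-96414833 on the minus strand of GRCm38, in the single exon of the RefSeq gene, with the run that matches the telomeric repeat in capitals.
Terc: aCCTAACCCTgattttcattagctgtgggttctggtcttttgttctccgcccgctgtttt
The capitals are 9 bases at positions 2 to 10 of 397 and occur once in the gene.

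Levels of the members spanned a wide range in *Znf143 f/f* libraries. *Dkc1* was the most abundant per length with a mean of 56.1 FPKM (50.8 to 60.1), followed by *Acd* with 21.3 FPKM, *Terf1* with 8.29 FPKM and *Terf2* with 7.57 FPKM. *Tinf2* (4.94 FPKM) and *Pot1a* (4.53 FPKM) came next, and their libraries overlapped. *Terc* (1.98 FPKM) overlapped with *Pot1b* (1.89 FPKM), and *Rtel1* (0.972 FPKM) overlapped with *Tert*, which was the lowest with 0.740 FPKM. All other neighbours in this order were apart in every library. In *Znf143 -/-* libraries no neighbours overlapped, and the order differed in that *Terc*, with a mean of 1.37 FPKM, came after *Pot1b* (2.55 FPKM) and *Rtel1* (1.85 FPKM). *Pot1b* is listed with a length of 3499 bases, whereas its GENCODE exons cover 5268 bases, so its level per length rests on the shorter length. The other 9 members were listed with the length of their GENCODE exons.

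**Figure D1:**
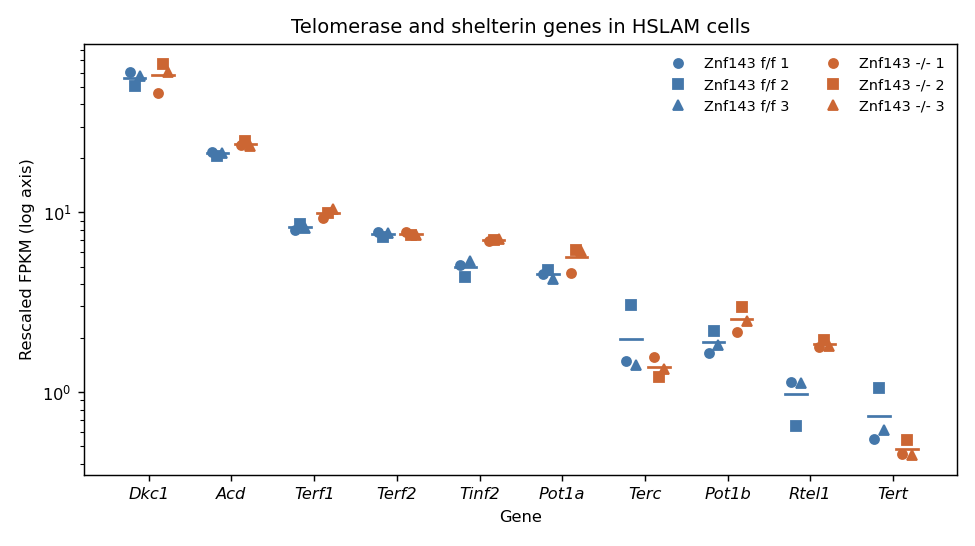
Rescaled FPKM (log axis) of each of the 10 members in each library, with *Znf143 f/f* in blue and *Znf143 -/-* in orange; lines are means of 3 libraries. *Tinf2* and *Rtel1* are higher in all *Znf143 -/-* libraries, and the second *Znf143 f/f* library (square) is apart from the other two for *Terc*, *Rtel1* and *Tert*.

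To ask whether loss of *Znf143* altered telomere genes, the genotypes were compared in a fit over 19221 genes. Of the 10 members, 1 rose (*Tinf2*), none fell, and 9 did not pass an adjusted p of 0.05. At an unadjusted p under 0.05, 3 were higher and 0 lower, compared to 12.4% and 11.8% of all genes. Over all genes tested, 3.01% rose, 3% fell and 6% did either, so that 1 of 10 members is close to the background. For 8 of the 10 members the log2 fold change was positive, compared to 50.7% of all genes, with a median of 0.21 against 0.01. In 4 members, all *Znf143 -/-* libraries were above all *Znf143 f/f* libraries, and in 1 member all were below, whereas 15.4% and 15.3% of all genes were apart in these directions. An exact permutation test of 3 against 3 libraries cannot give a p below 0.1, which is the two-sided p of each of these 5 members. The second *Znf143 f/f* library was the highest or the lowest of its genotype for all 10 members. The first *Znf143 -/-* library was so for 8, and the other libraries for 3 to 7. Because 2 of 3 libraries are outermost for any gene, a count of 8 alone does not set a library apart. The second *Znf143 f/f* and the first *Znf143 -/-* library lay farthest from their genotypes over all genes. Their median absolute deviations were 0.32 and 0.31 (log2) against 0.14 to 0.21 in the other libraries. Without these 2 libraries, 5 members rose (*Terf1*, *Pot1a*, *Pot1b*, *Tinf2* and *Rtel1*), and 42.5% of all genes were called. This fit leaves 2 libraries per genotype and was chosen after the data were seen.

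**Figure D2:**
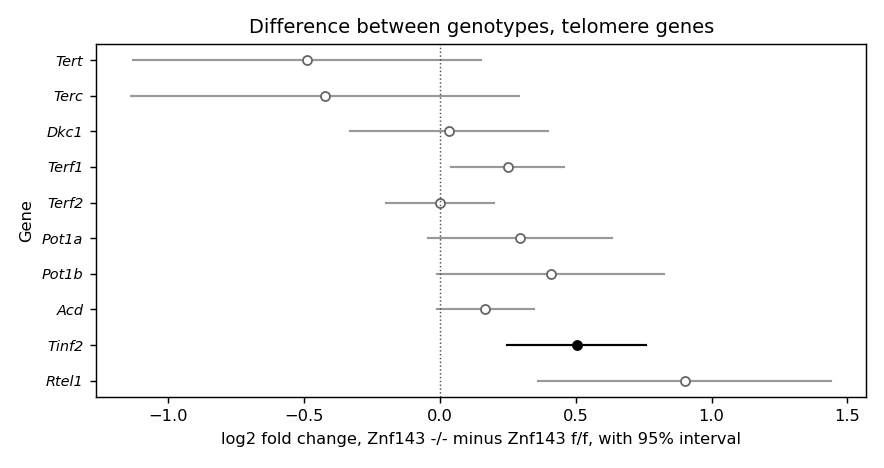
Log2 fold change (*Znf143 -/-* minus *Znf143 f/f*) of each member on the log2(FPKM + 0.1) scale with its 95% interval from limma; filled points have an adjusted p under 0.05. *Tinf2* is the only filled point, and the widest intervals are those of *Tert*, *Terc* and *Rtel1*.

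Of the telomerase components, *Tert* (chr13:73626911-73649843, plus strand) was at 0.549, 1.06 and 0.613 FPKM in *Znf143 f/f* and at 0.453, 0.544 and 0.446 FPKM in *Znf143 -/-* libraries. Every *Znf143 -/-* library was below every *Znf143 f/f* library, but the second *Znf143 f/f* library was far above the other two. This gave a log2 fold change of -0.49 ± 0.27 (SE, n = 3, 95% interval -1.13 to 0.15) and an adjusted p of 0.323 by limma, and without the second *Znf143 f/f* library it was -0.23. These values rest on 118 to 306 fragments per library. Among 10 proliferation genes, which were listed for comparison because telomerase is high in dividing cells, *Pcna* rose by 0.36 and the other 9 did not pass the test. Their summed FPKM was 454 to 502 in *Znf143 f/f* and 508 to 555 in *Znf143 -/-* libraries. Of this, *Pcna* made up 100 to 107 and 128 to 137 FPKM, respectively. Of the 10, 7 had a positive log2 fold change and 3 a negative one (*Mki67* -0.27, *Top2a* -0.23 and *Myc* -0.22). The part of these genes in the level of *Tert* was not tested.

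*Terc* (chr3:96414437-96414859, minus strand), whose template is shown above, was at 1.5, 3.04 and 1.41 FPKM in *Znf143 f/f* and at 1.56, 1.22 and 1.34 FPKM in *Znf143 -/-* libraries. The genotypes overlapped, and the second *Znf143 f/f* library was again the highest. The log2 fold change was -0.42 ± 0.30 (SE, n = 3, adjusted p = 0.442 with limma), and it was -0.08 without this library. Only 25 to 65 fragments per library lay on *Terc*, a short non-coding RNA that mostly lacks a poly(A) tail, whereas these libraries were primed with oligo-dT.

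*Dkc1* (chrX:75095854-75109777, plus strand) was at 60.1, 50.8 and 57.4 FPKM in *Znf143 f/f* and at 46.3, 67.3 and 60.4 FPKM in *Znf143 -/-* libraries. The *Znf143 -/-* libraries lay on both sides of the controls. Between genotypes, the log2 fold change was 0.03 ± 0.15 (SE, n = 3, 95% interval -0.33 to 0.40), which changed sign without the second *Znf143 f/f* or the second or the third *Znf143 -/-* library. With 8674 to 14906 fragments per library, counting error is small here compared to the spread between libraries.

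Of the 6 shelterin genes among the members, *Tinf2* (chr14:55674689-55681820, minus strand) was the one that rose. It was at 5.09, 4.37 and 5.37 FPKM in *Znf143 f/f* libraries. It was at 6.94, 7.03 and 7.13 FPKM in *Znf143 -/-* libraries. All *Znf143 -/-* libraries were above the controls and close to each other, with a fold of 1.42 (log2 0.50 ± 0.11, SE, n = 3, adjusted p = 0.0443 with limma). The log2 fold change stayed between 0.42 and 0.62 in all 16 alternatives, and the highest adjusted p was 0.200. Of these alternatives, 8 passed the threshold, among them the fit without 2 libraries that was chosen after the data were seen. The adjusted p was above the threshold with FPKM as deposited (0.119) and without the first or the third *Znf143 f/f* (0.136, 0.114) or the second or the third *Znf143 -/-* library (0.151, 0.200).

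*Tinf2* shares 1540 of its exon bases (31.2%) with *Gmpr2*, a guanosine monophosphate reductase gene on the opposite strand. The library kit does not keep strand, so fragments of the shared bases cannot be assigned to either gene. *Gmpr2* was at 6.21, 6.97 and 6.73 FPKM in *Znf143 f/f* and at 3.13, 3.63 and 3.54 FPKM in *Znf143 -/-* libraries. It fell by 0.93 ± 0.11 (SE, n = 3, adjusted p = 0.00693 with limma) on the log2 scale, so that the genes of the pair moved in opposite directions. How the fragments of the shared bases were assigned was not tested, and the sizes of both differences are uncertain for this reason. *Acd* (chr8:105695860-105701102, minus strand) shares 1208 exon bases (33.3%) with *Carmil2* on the opposite strand, whose log2 fold change was -0.12 ± 0.13 (SE, n = 3).

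**Figure D3:**
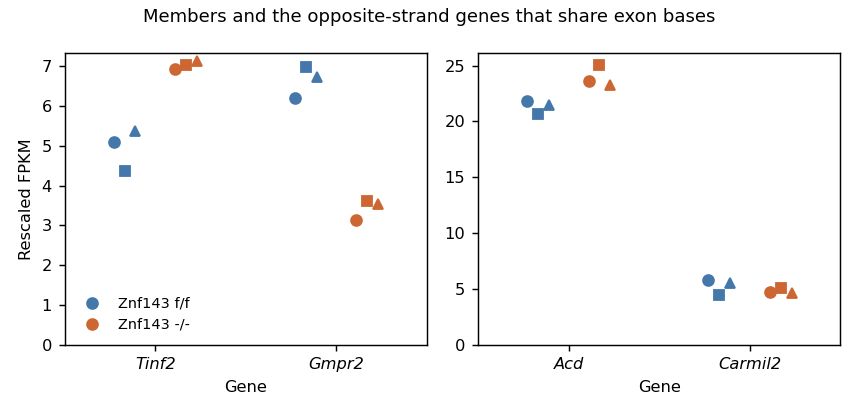
Rescaled FPKM of *Tinf2* and *Acd* beside the opposite-strand genes *Gmpr2* and *Carmil2* that share exon bases with them, one point per library. *Tinf2* is higher and *Gmpr2* lower in all 3 *Znf143 -/-* libraries, whereas the genotypes overlap for *Carmil2*.

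*Acd* was at 21.8, 20.7 and 21.5 FPKM in *Znf143 f/f* and at 23.6, 25.1 and 23.3 FPKM in *Znf143 -/-* libraries. The genotypes were apart, but the difference was small (log2 0.17 ± 0.07, SE, n = 3, adjusted p = 0.228 with limma), and no alternative passed the threshold. *Terf1* (chr1:15805646-15844052, plus strand) was at 8.02, 8.66 and 8.19 FPKM in *Znf143 f/f* and at 9.34, 9.91 and 10.4 FPKM in *Znf143 -/-* libraries. All *Znf143 -/-* libraries were higher, with a log2 fold change of 0.25 ± 0.09 (SE, n = 3) and an adjusted p of 0.143 by limma.

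*Terf2* (chr8:107069400-107096547, minus strand) was the most even member. It was at 7.76, 7.28 and 7.67 FPKM in *Znf143 f/f* and at 7.81, 7.46 and 7.45 FPKM in *Znf143 -/-* libraries. The log2 fold change was 0.00 ± 0.08 (SE, n = 3), and its 95% interval of -0.20 to 0.20 gives the size of difference that these libraries leave possible. Its sign changed without the second *Znf143 f/f* or the first *Znf143 -/-* library. *Terf2* and *Rtel1* are both on the study's list of genes with a strong ZNF143 association, which was narrowed by expression in the same libraries and is not independent of them.

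*Pot1a* (chr6:25743737-25809246, minus strand) was at 4.56, 4.78 and 4.26 FPKM in *Znf143 f/f* and at 4.59, 6.19 and 6.13 FPKM in *Znf143 -/-* libraries. The first *Znf143 -/-* library lay among the controls and the other two above them, with a log2 fold change of 0.30 ± 0.14 (SE, n = 3, adjusted p = 0.259 with limma). Without this library it was 0.44, with an adjusted p of 0.0414 by limma, in a fit that called 2103 genes against 1154 in the main one. With any other single library left out, the adjusted p of *Pot1a* by limma was 0.222 to 0.587. Of the 16 alternatives 2 passed, the second being the fit without 2 libraries that was chosen after the data were seen. *Pot1b* (chr17:55651951-55712628, minus strand) was at 1.64, 2.20 and 1.83 FPKM in *Znf143 f/f* and at 2.16, 2.99 and 2.49 FPKM in *Znf143 -/-* libraries. The lowest *Znf143 -/-* library was just under the highest control (log2 0.41 ± 0.17, SE, n = 3, adjusted p = 0.214 with limma). The longest run of bases that *Pot1a* and *Pot1b* transcripts share is 41 bases, which is shorter than the 76-base reads, and no stretch of read length is common to both. *Terf1* and *Terf2* share at most 17 bases.

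*Rtel1* (chr2:181319739-181356616, plus strand) had the largest fold change among the members but did not pass the test. It was at 1.14, 0.653 and 1.12 FPKM in *Znf143 f/f* libraries and at 1.79, 1.96 and 1.81 FPKM in *Znf143 -/-* libraries. Every *Znf143 -/-* library was above every control, and the second control was well below the others. The log2 fold change was 0.90 ± 0.23 (SE, n = 3, 95% interval 0.36 to 1.44) with an adjusted p of 0.0678 by limma. Of the 16 alternatives, 3 passed the threshold. These were the fit without the second *Znf143 f/f* library (log2 0.66, adjusted p = 0.0291 with limma) and voom on the recovered fragments (0.0358). The remaining fit left out the second *Znf143 f/f* and the first *Znf143 -/-* library and was chosen after the data were seen.

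Ratios between 2 members within a library do not depend on how that library was scaled, and 4 ratios were compared. The ratio of *Acd* to *Tinf2* was 4.28, 4.73 and 4.01 in *Znf143 f/f* and 3.41, 3.57 and 3.26 in *Znf143 -/-* libraries. *Acd* and *Tinf2* share 33.3% and 31.2% of their exon bases with opposite-strand genes. The size of their ratio is uncertain for this reason, since how the shared fragments were assigned was not tested. The ratio of *Terf2* to *Terf1* was 0.967, 0.841 and 0.937 in *Znf143 f/f* and 0.836, 0.753 and 0.717 in *Znf143 -/-* libraries. Both ratios were lower in every *Znf143 -/-* library, with log2 differences of -0.34 and -0.25. The exact two-sided permutation p was 0.1 for each, the smallest that 3 against 3 allows, and 0.2 after adjustment over 4 ratios. *Tert* relative to *Dkc1* was 0.00913, 0.0208 and 0.0107 in *Znf143 f/f* and 0.00978, 0.00808 and 0.00738 in *Znf143 -/-* libraries. *Pot1b* relative to *Pot1a* was 0.417 ± 0.051 and 0.453 ± 0.041 (SD, n = 3 each). For these, the genotypes overlapped, with permutation p (exact, two-sided) of 0.2 and 0.5 and adjusted p of 0.267 and 0.5.

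**Figure D4:**
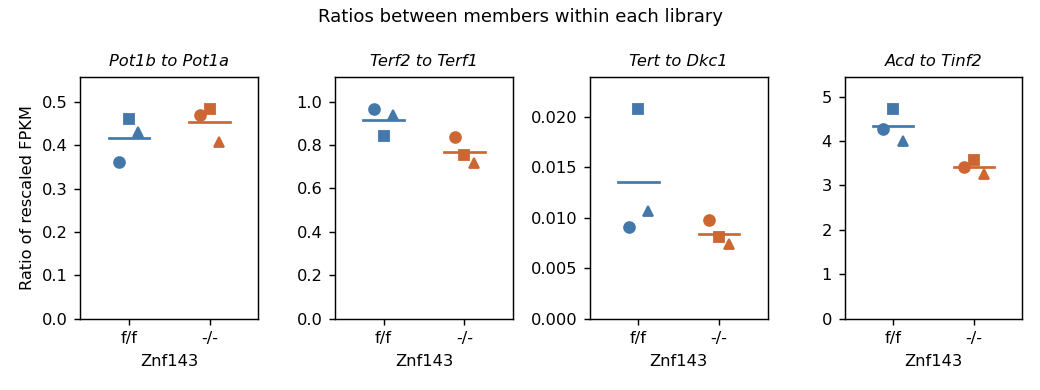
Ratio of rescaled FPKM between 2 members within each library, with one point per library and lines at the mean of 3 libraries; axes start at 0. *Terf2* to *Terf1* and *Acd* to *Tinf2* are lower in all *Znf143 -/-* libraries, and the other 2 ratios overlap.

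Genes that work with telomerase and shelterin were taken from a list of 34 genes in 4 roles, all of which were tested. Of these, *Stn1* rose, 3 fell (*Wrap53*, *Prim1* and *Hmbox1*), and 30 did not pass the test. The median log2 fold change of the list was -0.05, with 15 positive and 19 negative. The share called, 4 of 34, stands beside 6% of all genes. None of the 4 passed with FPKM as deposited, in the fit without the first or the third *Znf143 f/f* library, or without the second or the third *Znf143 -/-* library.

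*Wrap53*, which encodes the TCAB1 protein that guides telomerase to Cajal bodies and telomeres, was the only one of 13 telomerase assembly genes that passed the test. It was at 13.4, 12.1 and 12.2 FPKM in *Znf143 f/f* and at 8.43, 8.11 and 8.56 FPKM in *Znf143 -/-* libraries (log2 -0.58 ± 0.08, SE, n = 3, adjusted p = 0.0147 with limma). The genotypes were far apart compared to the spread within them. The proteins that bind the same RNA particle as dyskerin did not pass the test, with log2 fold changes of -0.43 for *Nop10*, 0.18 for *Nhp2* and 0.20 for *Gar1*. *Nop10* ranged from 661 to 1047 FPKM in *Znf143 f/f* and from 482 to 795 FPKM in *Znf143 -/-* libraries, so that the genotypes overlapped.

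Of the 7 genes of the CST complex and fill-in synthesis, which fills in the C-rich strand after telomerase has extended the other, *Stn1* rose and *Prim1* fell. *Stn1*, a CST subunit, was at 2.70, 2.04 and 2.57 FPKM in *Znf143 f/f* and at 4.14, 4.06 and 3.97 FPKM in *Znf143 -/-* libraries (log2 0.72 ± 0.14, SE, n = 3, adjusted p = 0.0315 with limma). It shares 124 exon bases with the antisense gene *Gm19557*, which was under 0.1 FPKM in every library. The other CST subunits did not pass the test, with log2 fold changes of -0.13 for *Ctc1* and 0.02 for *Ten1*. *Prim1*, the catalytic primase subunit, was at 29.0, 29.4 and 28.7 FPKM in *Znf143 f/f* and at 20.3, 22.5 and 22.4 FPKM in *Znf143 -/-* libraries (log2 -0.42 ± 0.08, SE, n = 3, adjusted p = 0.0314 with limma). Both genes had no overlap between genotypes, in opposite directions. *Pola1*, which did not pass the test, was also lower without overlap. Of the 7 genes, 1 was thus apart with higher and 2 with lower values, beside 15.4% and 15.3% of all genes.

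Of the 10 telomere-bound proteins outside the members, *Hmbox1*, which encodes a protein that binds the double-stranded repeat directly, fell. It was at 1.30, 1.12 and 1.30 FPKM in *Znf143 f/f* and at 0.725, 0.574 and 0.602 FPKM in *Znf143 -/-* libraries (log2 -0.87 ± 0.17, SE, n = 3, adjusted p = 0.0359 with limma). All *Znf143 -/-* libraries were well below the controls. *Terf2ip*, which encodes RAP1, the remaining shelterin subunit, was at 4.83, 5.07 and 5.08 FPKM in *Znf143 f/f* and at 4.67, 6.07 and 5.77 FPKM in *Znf143 -/-* libraries (log2 0.13 ± 0.12, SE, n = 3). With *Terf2ip*, all 7 shelterin genes had a log2 fold change of 0 or above (0.00 to 0.50), compared to 50.7% positive over all genes. The sign of *Terf2* changed between fits, and 1 of the 7 passed the test, beside 6% of all genes. The 4 genes of telomeric chromatin and unwinding (*Atrx*, *Daxx*, *Blm* and *Wrn*) did not pass it, with log2 fold changes between -0.38 and -0.05.

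**Figure D5:**
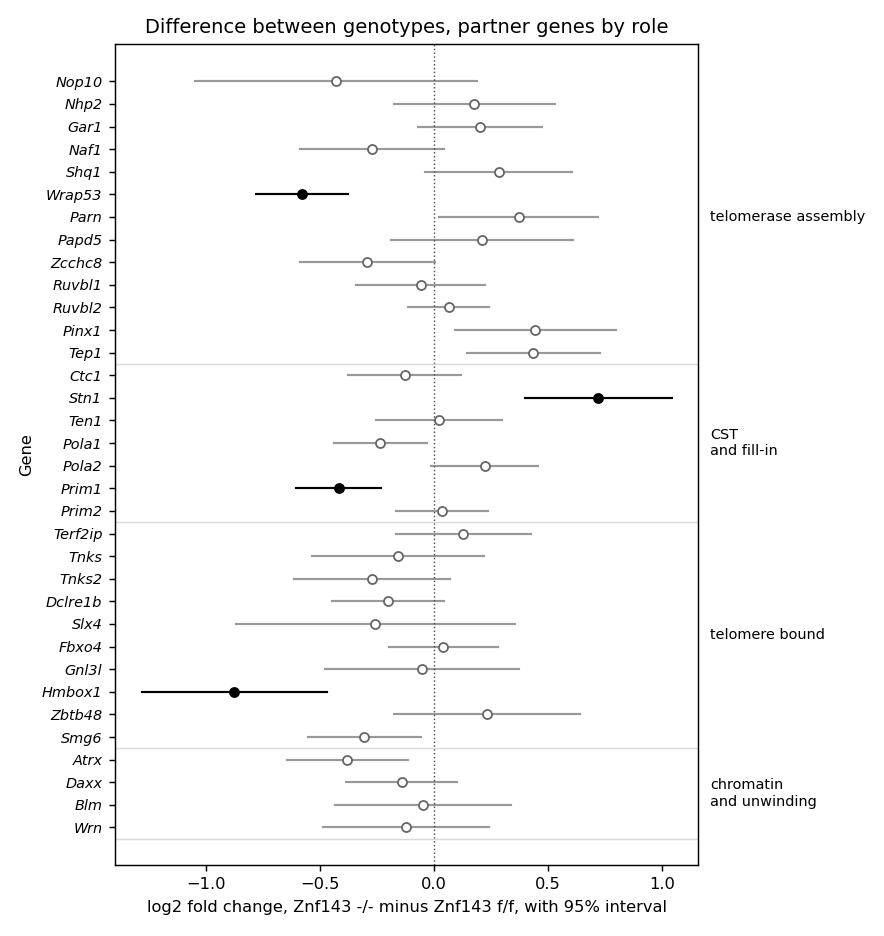
Log2 fold change (*Znf143 -/-* minus *Znf143 f/f*) of 34 partner genes on the log2(FPKM + 0.1) scale, grouped by role, with 95% intervals from limma; filled points have an adjusted p under 0.05. *Stn1* lies to the right and *Wrap53*, *Prim1* and *Hmbox1* to the left of 0, and the other 30 are open.

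Promoters of 8 members, from 250 bases before to 50 after the start, were found in RefSeq on GRCm38.p6, and *Terc* and *Terf1* had no entry. They were searched on both strands for ACTACA and CCCANNATG, which are parts of the ZNF143 motif, and for CACGTG, the E-box that MYC binds. These letters occur in 10.3%, 5.01% and 7.15% of 32851 mouse promoters, respectively. The only match was ACTACA on the minus strand of the *Dkc1* promoter, 111 bases before the start, and *Dkc1* was a member with no difference beyond the spread between libraries. No match says only that these letters are not in the window.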

How the data were processed

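HSLAM cells were measured by RNA-seq in 3 libraries per genotype; ChIP-seq and HiC samples were not analysed here. Libraries were made with the SMART-Seq v4 and Nextera XT kits. TrimGalore (trimming), STAR (alignment to GRCm38) and FeatureCounts were used by the authors, who deposited FPKM per gene and library with the gene length. Their mean counts, fold changes, test statistics and p-values of DESeq2 were not used. The annotation and strand setting are not given in the sources used here.

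FPKM times length gave whole fragments (within 0.05) for 99.9863% of 138696 values. Fragments were put on a common scale with median-of-ratios size factors. Genes with a mean of at least 0.1 FPKM were tested on log2(FPKM + 0.1), which understates changes of low genes. The test was limma 3.58.1 (R 4.3.3, lmFit, eBayes with trend, no block), adjusted by Benjamini-Hochberg. It was also run on simulated fragments with the same dispersion for every gene and no outlying library. That run does not show how the test behaves with libraries as uneven as these. Coordinates and overlaps came from GENCODE M21. Members and lists were chosen with earlier results of these data known. All members were named, and partners where called, besides *Terf2ip*, CST and H/ACA genes. Which littermates form a pair is not stated, so any pairing was left out of the main fit. The p-values of limma set the difference between genotypes against the spread between these libraries, moderated by a trend over all genes. One further marker of other cells was left out of the list and is not reported here.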

Additional observations from a re-analysis of the deposited data

How the results depend on the processing

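The number of genes called was 1154 and stayed between 833 (FPKM as deposited) and 1407 (voom) when the scaling, pseudocount, filter or variance model was changed. As deposited, 529 rose and 304 fell, and the median log2 fold change of all genes was 0.11 against 0.01 after rescaling. It was 186 with the replicate block, and 224 to 2269 with 1 library left out. Without the second *Znf143 f/f* and first *Znf143 -/-* libraries together, which was chosen after the data were seen, it was 8101.

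The number of members called was 1. It was 0 with FPKM as deposited, with the total of the third *Znf143 -/-* library as its divisor, without the variance trend and with the replicate block, 2 with voom, 0 to 2 with 1 library left out, and 5 without the 2 libraries. The number of partner genes called was 4. It was 0 as deposited, 2 with the own total, 0 with the replicate block, 0 to 6 with 1 library left out, and 20 without the 2 libraries.

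Of 159 log2 fold changes of single members in these fits, 138 kept their sign and their side of the threshold. Of the others, 8 lost the call, 7 gained it and 6 changed sign. A changed filter, no variance trend and the replicate block leave the log2 fold change as it is, so no sign can change there. With libraries left out, *Dkc1* ranged from -0.081 to 0.19, below 0 without the second *Znf143 f/f* (-0.035) or the second or the third *Znf143 -/-* library (-0.081, -0.0035). *Terf2* ranged from -0.049 to 0.019, below 0 without the second *Znf143 f/f* (-0.027), the first *Znf143 -/-* library (-0.021) or both (-0.049). With 0.1 added to each FPKM, all 4 ratios moved by less than the spread between libraries. The replicate block leaves a difference of means unchanged, and leaving out 1 of 3 libraries cannot move it by this spread. These fits therefore do not test the ratios. With 1 library left out, the log2 difference of *Tert* to *Dkc1* ranged from -0.84 to -0.24. The cause of these changes was not tested.

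The replicate numbers were not taken as pairs. Same-numbered libraries deviated from their genotypes with correlations of -0.17, -0.15 and 0.10 over 12441 genes, and 1 of 6 libraries correlated best with its own number. *Tinf2* had an adjusted p of 0.155 with limma and the block. *Terc* and *Tert* rest on 25 to 65 and 118 to 306 fragments per library, and their log2 fold changes of -0.42 and -0.49 were -0.08 and -0.23 without the second *Znf143 f/f* library.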
